A study of Saccharomyces cerevisiae with 6 samples.

Results

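The data compared total RNA of budding yeast moved for 2 h to 37°C with total RNA of the same strain kept at 25°C, the temperature at which both cultures were started. They comprised 4 of the 6 libraries of the series, 2 biological replicates per temperature, and all 6461 genes of the count table. The libraries were made by 3′-Tag-seq, which reads mRNAs from a primer placed on their poly(A) tail. Both groups carried CBP80-PPX-PrA (the large cap-binding subunit with a protein A tag) and SNAPf-YRA1 (the mRNA export adaptor with a SNAP tag) in the BY4741/2 background, and both grew in the rich medium YPD. The 25°C group stayed at 25°C. The culture of the 37°C group had an equal volume of pre-warmed medium added at the shift, so that heat and fresh medium cannot be told apart. The other 2 libraries, grown at 30°C, entered the fit only to help estimate the spread.

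A shift to high temperature unfolds proteins, weakens the cell wall, and slows growth for a time. In yeast, the heat shock factor Hsf1 drives chaperone genes through heat shock elements, and Msn2 and Msn4 drive a wide set of stress genes through stress response elements with the core AGGGG. The cell wall integrity kinase Slt2 drives wall repair genes, while genes for ribosomes and their assembly are turned down early and return as growth resumes.

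The 25°C libraries were unequal. Counts in genes were 842298 and 954950 in the 37°C libraries, against 184456 and 884443 in the 25°C libraries, so the second 25°C library was 4.79 times deeper than the first. Reads that fell in no annotated gene were 47.2% and 43.3% at 37°C, against 45.2% and 45.8% at 25°C. Reads without a unique place were 8.40% and 8.58% at 37°C, against 14.1% and 7.81% at 25°C. In CPM, counts scaled to a common library size with TMM factors, 3 counts were worth 3.20 and 2.81 CPM at 37°C, against 17.6 and 3.55 CPM at 25°C. Across genes, log2 CPM had a Pearson r of 0.974 between the 37°C replicates but 0.813 between the 25°C replicates. The second 25°C library was closer to the 37°C libraries (r of 0.935 and 0.927) than to its own replicate, while the first 25°C library had r of 0.775 and 0.731 with the 37°C libraries. Genes are not independent replicates, and these values are descriptions. Over 2-fold differences separated the 37°C replicates in 93 genes (1.80% of those tested) and the 25°C replicates in 1784 genes (34.4%). Genes listed for mating-type a cells held 0.119% and 0.120% of counts at 37°C, against 0.235% and 0.196% at 25°C. That list includes FAR1 and FUS2, which are not specific to a cells. FAR1 alone held 0.0292% and 0.0216% at 37°C, against 0.108% and 0.0495% at 25°C. Alpha genes held 0.00511% and 0.00565% at 37°C, against 0.00651% and 0.00328% at 25°C. The labels do not name the mating type. CPM are shares of a library, so fewer cells that express a gene and less of its RNA per cell cannot be told apart.

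The gap between the 25°C replicates moved with a feature of the genes. For each of 5017 nuclear coding genes tested, the window of 20 bases with the most adenines was found on the coding strand, a measure chosen after values of these libraries were seen. Genes whose richest window held 11 or fewer adenines had a median log2 difference of −1.21 between the first and the second 25°C library (537 genes). The median was −0.36 with 12 or 13 adenines (2284 genes), 0.24 with 14 or 15 (1936 genes), and 0.41 with 16 or more (260 genes). Spearman's rho across genes was 0.37 for adenines, against −0.02 for thymines counted the same way. The 37°C replicates showed the same order over a smaller range, with class medians of −0.17, −0.05, 0.05 and 0.08 for the first minus the second and a rho of 0.21. The order between the 25°C replicates held within genes of 900 to 1500 bases, where the medians were −0.94, −0.47, 0.09 and 0.36 from the poorest to the richest class. The mean of the 37°C libraries set against the second 25°C library had class medians within a narrow range, of 0.04, 0.02, 0.02 and 0.01, and a rho of −0.01. Set against the first 25°C library, the class medians were 1.35, 0.47, −0.15 and −0.30. The part of adenine-rich stretches in any gene's difference was not tested. Levels below are given in every library, and most counts and medians of gene lists against each 25°C library by itself beside those of the fit.

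**Figure D1:**
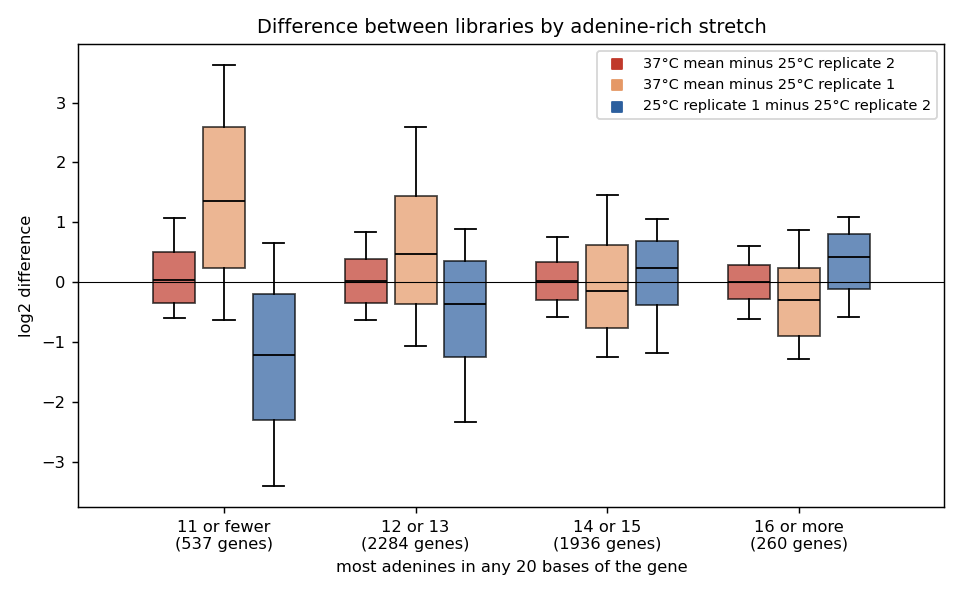
Box plots of log2 differences between libraries (y axis) for nuclear coding genes grouped by the most adenines in any 20 bases of the gene (x axis), with boxes for quartiles, a line for the median, and whiskers from the 10th to the 90th percentile. Medians of 37°C minus the second 25°C library lie between 0.01 and 0.04 in all 4 classes, while those of 37°C minus the first 25°C library run between 1.35 and −0.30, and those of the first minus the second 25°C library between −1.21 and 0.41.

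Calls required an adjusted p under 0.05 together with a fold change over 2, and no gene met both. The smallest adjusted p of the quasi-likelihood test of edgeR was 0.0646, over 5181 genes with enough counts, so that 0% were called. At an unadjusted p below 0.05, 390 genes were higher at 37°C (7.53%) and 312 were lower (6.02%), or 638 and 110 when libraries were scaled by total counts alone. Such scaling puts the median of all genes at 0.33 on the log2 scale, against 0.09 with TMM factors. DESeq2, which gave an adjusted p to 1156 of 6153 genes, called 53 at the same thresholds, 15 higher and 38 lower, and limma-voom called 0. All 15 of the higher genes, but 15 of the 38 lower genes, were over 2-fold apart from both 25°C libraries. DESeq2 without the first 25°C library called 22, of which 19 were higher and 3 lower. Of the 5181 genes, 94 passed the filter on low counts only through both 37°C libraries, so they could not have been lower.

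Counts of genes that stood over 2-fold apart in both 37°C libraries depended on the 25°C library used. Against the second 25°C library, 271 genes were higher (5.23%) and 63 were lower (1.22%). Against the first, 1367 were higher and 549 lower. Against both, 205 were higher (3.96%) and 41 lower (0.791%), which is 75.6% of the higher and 65.1% of the lower genes found with the second library but 15.0% and 7.47% of those found with the first. With scaling by total counts, 419 were higher and 23 lower against the second library, and 308 higher and 16 lower against both. Of the 205 higher genes, 181 had fewer than 10 counts in the first 25°C library and 55 had none, while 120 had at least 10 counts in the second. The 205 can include some of the 94 genes that passed the filter only through the 37°C libraries, and how many was not counted. At least 10 counts in every library were found for 24 of the 205 and for 34 of the 41 lower genes. When the scaling factors were computed from the 2818 genes with that many counts, 36 were higher and 12 lower.

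**Figure D2:**
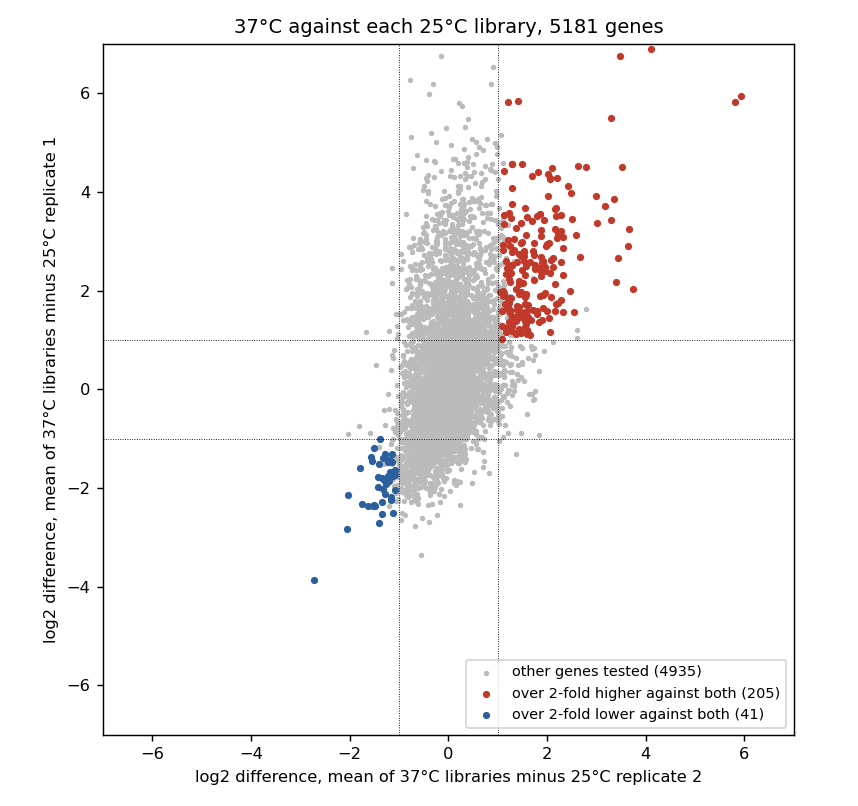
Each point is 1 of 5181 genes, with the log2 difference between the mean of the 37°C libraries and the second 25°C library on the x axis and the first 25°C library on the y axis. Dotted lines mark 2-fold, red points are the 205 genes over 2-fold higher at 37°C against both, and blue points are the 41 over 2-fold lower, and the cloud is taller than it is wide.

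Among the lists with 10 or more tested genes, stress genes had the highest median against each 25°C library. Of 36 genes known as targets of Msn2 and Msn4, 26 were tested, and all 26 had a positive fold change in the fit, with a median of 1.61 on the log2 scale against 0.09 over all genes. The median was 1.22 against the second 25°C library and 2.41 against the first. Of the 26, 25 were above the second, 24 above the first, and 13 over 2-fold higher than both (3.96% of all genes tested). Genes below the filter's cutoff of 11.6 CPM in both 25°C libraries, such as HSP12 and GPM2 below, passed it only through other libraries. How many of the 26 did so was not counted, so their signs and median may rest in part on the filter. The list was assembled with earlier results of these data known. HSP12, a small protein that protects membranes, had 109 and 190 counts in the 37°C libraries (116 and 178 CPM), against 0 counts in both 25°C libraries. Taking 3 counts over the pooled 25°C libraries as the floor, HSP12 was at least 49.8-fold higher at 37°C. SPI1, a wall protein of stressed cells, had 93.8 and 156 CPM at 37°C, against 5.88 and 9.47 CPM at 25°C, where the last values are 1 and 8 counts. GAD1, a glutamate decarboxylase of the oxidative stress defence, had 113 and 124 CPM at 37°C, against 11.8 and 23.7 CPM at 25°C. GPM2, a paralog of phosphoglycerate mutase, had 73.5 and 99.4 CPM at 37°C, against 5.88 and 8.29 CPM at 25°C. CTT1, the cytosolic catalase, had 45.8 and 45.0 CPM at 37°C, against 5.88 and 17.8 CPM at 25°C, and its fold change of 1.61 (log2, SE 0.59) had an adjusted p of 0.338 in edgeR. In each of these genes the lowest 37°C library was above the highest 25°C library. Their values in the first 25°C library rest on 0 to 2 counts.

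Chaperone genes did not move as 1 group. Among 30 tested targets of Hsf1, 15 were above the second 25°C library and 17 above the first, where the shares over all genes were 51.7% and 56.5%. At an unadjusted p below 0.05 in edgeR, 8 were higher and 4 lower (7.53% and 6.02% of all genes tested). The median fold change of 0.14 on the log2 scale was close to that of all genes. HSP26, a small heat shock protein that holds unfolded proteins, was the extreme case, with 434 and 618 CPM in the 37°C libraries, against 5.88 and 5.92 CPM in the 25°C libraries (1 and 5 counts). Its fold change was 6.44 (log2, SE 0.62), with an adjusted p of 0.0646 in edgeR, and 6.41 without the first 25°C library. DESeq2 with all libraries gave HSP26 no adjusted p. SSE2, a nucleotide exchange factor for Hsp70, had 638 and 647 CPM at 37°C, against 212 and 159 CPM at 25°C. HSP82, the heat-inducible Hsp90, had 3237 and 3174 CPM at 37°C, against 1746 and 1167 CPM at 25°C. SSA4, an inducible Hsp70, had 393 and 316 CPM at 37°C, against 200 and 107 CPM at 25°C. HSP82 and SSA4 were thus over 2-fold higher than the second 25°C library only. BTN2, which sorts misfolded proteins, had 79.9 and 89.1 CPM at 37°C, against 235 and 252 CPM at 25°C, and MBF1, a transcriptional coactivator, had 17.1 and 24.4 CPM at 37°C, against 76.4 and 59.2 CPM at 25°C. Both were over 2-fold lower than each 25°C library, in opposite direction to HSP26 within the same list. HSP82, SSA4, MBF1, and SPI1 were chosen for description after their values were seen.

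The start regions of 4 genes are shown because each carries at least 1 of the motifs below and was over 2-fold apart from both 25°C libraries at 37°C. Each runs from 250 bases before the start codon to 50 bases from it on, was read from the R64 genome, and is written on the strand of the gene, 5′ to 3′, with motif letters in capitals. The motifs searched on both strands were the stress response element (AGGGG), the heat shock element (GAANNTTC or TTCNNGAA), the Gcn4 site (TGACTC), and the PAC motif of ribosome assembly genes (GCGATGAG). HSP12 (chrVI:107006-107305, plus strand) held 2 stress response elements, 232 and 190 bases before the start codon. SSE2 (chrII:575947-576246, minus strand) held a heat shock element 237 and a stress response element 226 bases before it. ILV3 (chrX:466159-466458, minus strand), a branched-chain amino acid gene described below, held a Gcn4 site at 135 bases, and KRR1 (chrIII:23330-23629, minus strand), a ribosome assembly gene, held a PAC motif at 103 bases. The region of HSP26 held none of the 4 motifs as spelled here.
HSP12: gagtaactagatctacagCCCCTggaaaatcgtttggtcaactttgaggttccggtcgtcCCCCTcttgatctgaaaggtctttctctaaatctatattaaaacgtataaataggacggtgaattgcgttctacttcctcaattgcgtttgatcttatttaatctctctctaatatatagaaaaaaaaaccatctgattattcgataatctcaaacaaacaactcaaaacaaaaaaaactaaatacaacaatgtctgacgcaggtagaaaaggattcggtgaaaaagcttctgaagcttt
SSE2: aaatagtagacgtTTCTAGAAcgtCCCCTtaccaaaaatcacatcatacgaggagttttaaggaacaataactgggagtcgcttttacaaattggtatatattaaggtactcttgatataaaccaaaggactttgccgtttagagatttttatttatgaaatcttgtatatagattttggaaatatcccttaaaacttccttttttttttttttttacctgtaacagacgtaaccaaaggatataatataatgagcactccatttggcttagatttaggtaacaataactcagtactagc
ILV3: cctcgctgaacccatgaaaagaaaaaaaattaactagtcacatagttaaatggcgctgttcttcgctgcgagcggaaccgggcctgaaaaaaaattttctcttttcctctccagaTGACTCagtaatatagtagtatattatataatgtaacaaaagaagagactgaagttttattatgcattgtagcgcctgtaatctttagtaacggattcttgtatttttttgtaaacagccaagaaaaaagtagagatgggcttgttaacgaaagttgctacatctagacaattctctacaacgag
KRR1: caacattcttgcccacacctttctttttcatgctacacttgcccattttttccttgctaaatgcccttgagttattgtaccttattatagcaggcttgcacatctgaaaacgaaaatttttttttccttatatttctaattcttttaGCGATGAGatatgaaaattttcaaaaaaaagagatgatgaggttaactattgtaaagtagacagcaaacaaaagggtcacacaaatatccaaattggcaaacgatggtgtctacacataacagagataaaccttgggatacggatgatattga
Of 5017 such regions, 21.4% held a stress response element, 23.0% a heat shock element, 8.33% a Gcn4 site, and 4.54% a PAC motif. Among the 192 regions of coding genes over 2-fold higher than both 25°C libraries, the shares were 39.1%, 21.9%, 13.5% and 1.56% in the same order. Among the 40 that were over 2-fold lower, they were 15.0%, 25.0%, 12.5% and 2.50%. Of the Msn2 and Msn4 list, 69.2% held a stress response element, and of the Hsf1 list 66.7% held a heat shock element. These shares are descriptions with no test, and a match of letters is not a bound site. The 192 regions were drawn from the 205 higher genes, with the same limit from the filter.

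Glycogen and trehalose genes had the next highest median against the second 25°C library. Both sugars are stores that stressed yeast builds up and breaks down. Of 20 tested members, 18 had a positive fold change, 18 were above the second 25°C library and 16 above the first. Over 2-fold higher than both were 7 (3.96% of all genes tested). Here too, members low in both 25°C libraries, such as TSL1 below, passed the filter only through other libraries. The same limit holds for such counts in the lists that follow, as for PTP2, ATG34 and BNA2. How many members it covers was not counted, so these counts of higher genes may rest in part on the filter. The median was 1.15 over the fit, 0.97 against the second 25°C library, and 1.38 against the first. GPH1, glycogen phosphorylase, had 113 and 161 CPM at 37°C, against 11.8 and 8.29 CPM at 25°C (2 and 7 counts), with a fold change of 3.90 (log2, SE 0.46, adjusted p = 0.0680 in edgeR). GLC3, the glycogen branching enzyme, had 87.4 and 99.4 CPM at 37°C, against 29.4 and 18.9 CPM at 25°C. GSY2, the main glycogen synthase, had 662 and 671 CPM at 37°C, against 241 and 215 CPM at 25°C. NTH1, a neutral trehalase, had 129 and 148 CPM at 37°C, against 58.8 and 43.8 CPM at 25°C. TSL1, a subunit of trehalose synthase, had 32.0 and 71.3 CPM at 37°C, against 0 and 9.47 CPM at 25°C. Among the genes named here, enzymes that make the stores and enzymes that break them down stood on the same side of both 25°C libraries. This did not hold for the glycogen synthase GSY1, with log2 differences of −0.39 from the second and 0.14 from the first. GSY2, NTH1 and TSL1 were chosen after their values were seen.

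**Figure D3:**
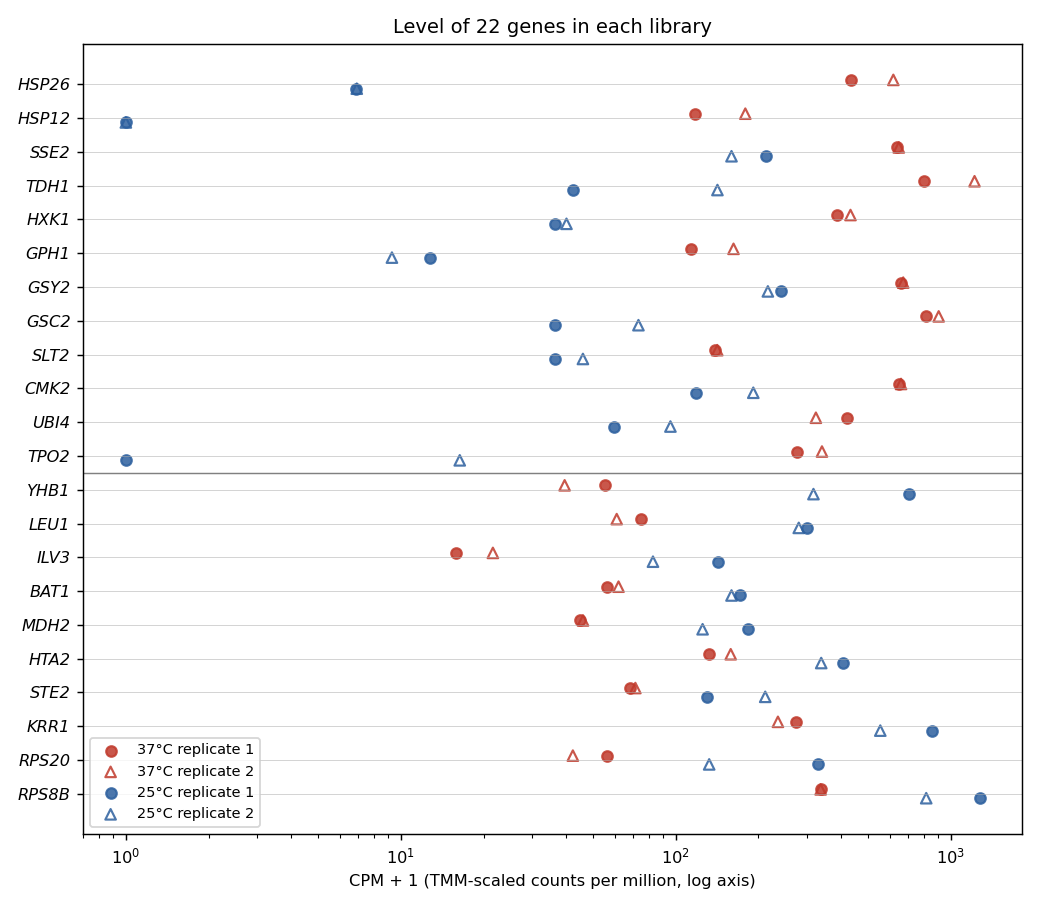
Level of 22 genes (rows) in each library as CPM + 1 on a log axis, with 37°C in red above 25°C in blue and filled circles for replicate 1 and open triangles for replicate 2. For each of the 12 genes above the grey line both 37°C libraries lie right of both 25°C libraries, and for each of the 10 genes below it both lie to the left. The genes were picked with their values known, so this separation follows from the choice.

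Genes of the cell wall were higher in part. GSC2, the stress-inducible catalytic subunit of glucan synthase, had 815 and 904 CPM in the 37°C libraries, against 35.3 and 72.2 CPM in the 25°C libraries. Its fold change was 3.89 (log2, SE 0.42), with an adjusted p of 0.0646 in edgeR and of 1.94e-11 in DESeq2 with all libraries. Of 33 tested wall enzymes and proteins, 12 were higher at an unadjusted p below 0.05 in edgeR and 1 lower (7.53% and 6.02% of all genes tested). Over 2-fold higher than both 25°C libraries were 7 (3.96% of all genes). The median was 0.82 over the fit, 0.66 against the second 25°C library and 1.05 against the first. PST1, a wall protein of cells with wall damage, had 195 and 224 CPM at 37°C, against 35.3 and 52.1 CPM at 25°C. SED1, a structural wall glycoprotein, had 179 and 178 CPM at 37°C, against 47.0 and 59.2 CPM at 25°C. Of 21 tested genes of the signalling pathway to the wall, 3 were over 2-fold higher than both (3.96% of all genes). They were the kinase gene SLT2, with 139 and 141 CPM at 37°C, against 35.3 and 45.0 CPM at 25°C, the phosphatase gene PTP2, with 25.6 and 30.9 CPM at 37°C, against 0 and 5.92 CPM at 25°C, and BAG7, which encodes a GTPase-activating protein for Rho1. BAG7 had 129 and 84.4 CPM at 37°C, against 11.8 and 5.92 CPM at 25°C. Over the 21 pathway genes, 6 were higher and 1 was lower at an unadjusted p below 0.05, and the median was 0.24 over the fit, 0.27 against the second 25°C library and 0.19 against the first. CMK2, a calmodulin-dependent kinase, had 647 and 659 CPM at 37°C, against 118 and 191 CPM at 25°C, and DESeq2 gave it an adjusted p of 0.00278 with all libraries and 0.0494 without the first 25°C library.

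Sugar uptake and the first steps of sugar use were also higher in part. HXK1, a hexokinase that glucose represses, had 384 and 431 CPM at 37°C, against 35.3 and 39.1 CPM at 25°C, with a fold change of 3.43 (log2, SE 0.38, adjusted p = 0.0646 in edgeR). HXT4, a hexose transporter, had 216 and 233 CPM at 37°C, against 88.2 and 73.4 CPM at 25°C. SNF3, a glucose sensor, had 38.4 and 35.6 CPM at 37°C, against 11.8 and 13 CPM at 25°C. Of 14 tested genes of hexose uptake and phosphorylation, 4 were over 2-fold higher than both 25°C libraries and none lower (3.96% and 0.791% of all genes). TDH1, the glyceraldehyde-3-phosphate dehydrogenase of slow-growing cells, had 803 and 1221 CPM at 37°C, against 41.2 and 141 CPM at 25°C. Glycolysis as a list did not share this, with 5 of 16 genes above the second 25°C library and 10 above the first, and medians of −0.12 and 0.71. PGK1, phosphoglycerate kinase, had 371 and 290 CPM at 37°C, against 929 and 598 CPM at 25°C. ALD4, a mitochondrial aldehyde dehydrogenase, had 126 and 147 CPM at 37°C, against 23.5 and 33.1 CPM at 25°C. CYB2, which oxidises lactate, had 43.7 and 60.02 CPM at 37°C, against 5.88 and 2.37 CPM at 25°C (1 and 2 counts). Among 11 tested genes known as repressed by glucose, in contrast, 9 were above the second 25°C library and 4 above the first. The direction of that list as a whole thus rests on the library used. Over 2-fold higher than both were 3, and 1 was lower (3.96% and 0.791% of all genes). Among the 3, SFC1 and CAT8 had 0 counts in the first 25°C library.

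Several of these genes have a close paralog, and 7 such pairs were set side by side after the values were seen. All 7 genes were higher at 37°C against each 25°C library, and none of the 7 paralogs was over 2-fold higher. Both statements may follow from that choice and do not describe paralogs at large. Against the second 25°C library, the log2 difference was 3.52 for GSC2 and −0.35 for FKS1, 3.30 for HXK1 and −0.51 for HXK2, and 2.79 for TDH1 and −0.05 for TDH3. Against the first, it was 4.51 for GSC2 and −0.52 for FKS1, 3.43 for HXK1 and 0.69 for HXK2, and 4.50 for TDH1 and 0.62 for TDH3. For the glycogen synthases, the difference was 1.62 for GSY2 and −0.39 for GSY1 against the second 25°C library, and 1.46 for GSY2 and 0.14 for GSY1 against the first. SSE2 stood at 2.00 and SSE1 at −0.25 against the second library, and SSE2 at 1.59 and SSE1 at −1.12 against the first. HSP82 stood at 1.46 and HSC82 at −0.52 against the second, and HSP82 at 0.88 and HSC82 at −0.75 against the first. GSP2, a Ran GTPase, stood at 1.90 and GSP1 at −0.38 against the second, and GSP2 at 2.58 and GSP1 at 0.12 against the first. Reads that fit both members of a pair equally well are not counted for either, so these levels rest on the stretches in which the members differ.

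Protein turnover and metabolite genes gave smaller groups. UBI4, the stress-inducible polyubiquitin, had 419 and 323 CPM at 37°C, against 58.8 and 94.7 CPM at 25°C, with a fold change of 2.20 (log2, SE 0.36, adjusted p = 0.138 in edgeR). DESeq2 with all libraries gave UBI4 an adjusted p of 0.00202. The proteasome, which degrades ubiquitin-tagged proteins, had 1 of 37 genes above the second 25°C library and 14 above the first, with medians of −0.40 and −0.31. Its gene PRE5 had 179 and 150 CPM at 37°C, against 735 and 279 CPM at 25°C. Of 18 tested autophagy and vacuole genes, 2 were over 2-fold higher than both, where the share over all genes was 3.96%. They were the aminopeptidase gene APE1, with 156 and 226 CPM at 37°C, against 47.0 and 61.6 CPM at 25°C, and the cargo receptor gene ATG34, with 38.4 and 46.0 CPM at 37°C, against 5.88 and 9.47 CPM at 25°C. Of 15 tested genes of NAD synthesis, 4 were over 2-fold higher than both, against 3.96% of all genes. Among them, BNA1 had 272 and 264 CPM at 37°C, against 82.3 and 98.2 CPM at 25°C, BNA5 had 76.7 and 91.0 CPM at 37°C, against 11.8 and 20.1 CPM at 25°C, and BNA2 had 28.8 and 33.8 CPM at 37°C, against 5.88 and 3.55 CPM at 25°C. All 3 encode enzymes of the route that makes NAD out of tryptophan. The end of BNA2 overlaps YJR079W on the same strand, so its counts are less certain. CHA1, which breaks down serine and threonine, had 418 and 367 CPM at 37°C, against 82.3 and 116 CPM at 25°C. TPO2, a polyamine exporter, had 276 and 339 CPM at 37°C, against 0 and 15.4 CPM at 25°C. Among 76 tested small nucleolar and nuclear RNAs, 7 were over 2-fold higher than both, against 3.96% of all genes. At an unadjusted p below 0.05 in edgeR, 16 were higher and 11 lower (7.53% and 6.02% of all genes). Over 2-fold lower than the second 25°C library were 2 (1.22% of all genes). They held 2.70% and 2.12% of counts at 37°C, against 4.19% and 2.26% at 25°C. SNR4 had 926 and 624 CPM at 37°C, against 153 and 205 CPM at 25°C. Since the libraries are primed on poly(A) tails, these counts cover only forms that the primer reached. Total levels of these RNAs were not measured.

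Genes of branched-chain amino acid synthesis were among those over 2-fold lower at 37°C. The balance of higher and lower genes depended on the filter and the tool, as the counts above show. Of 12 tested, 8 were below the second 25°C library and 4 were over 2-fold lower than both 25°C libraries (0.791% of all genes). The median was −0.73 over the fit, −0.83 against the second 25°C library, and −0.51 against the first. LEU1, isopropylmalate isomerase of leucine synthesis, had 73.5 and 60.02 CPM in the 37°C libraries, against 300 and 279 CPM in the 25°C libraries. Its fold change was −2.11 (log2, SE 0.32, adjusted p = 0.119 in edgeR), and DESeq2 gave an adjusted p of 0.000400 with all libraries and 0.0129 without the first 25°C library. ILV3, a dehydratase shared by isoleucine, valine, and leucine synthesis, had 14.9 and 20.6 CPM at 37°C, against 141 and 81.7 CPM at 25°C. BAT1, the mitochondrial transaminase at the end of the pathway, had 55.4 and 61.0 CPM at 37°C, against 170 and 159 CPM at 25°C. ILV2, the first enzyme of the shared branch, had 99.1 and 102 CPM at 37°C, against 253 and 225 CPM at 25°C, and was chosen after its values were seen. In all 4 genes both 37°C libraries lay below both 25°C libraries. For other amino acid genes under Gcn4 the direction depended on the 25°C library, with 18 of 48 above the second and 36 above the first, and medians of −0.20 and 0.79. ASN2, an asparagine synthetase, had 181 and 154 CPM at 37°C, against 576 and 327 CPM at 25°C. ARG1 of arginine synthesis had 49.0 and 67.5 CPM at 37°C, against 0 and 7.10 CPM at 25°C.

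The gene with the largest decrease in the fit among those low in all 4 pairs of libraries was YHB1, a flavohemoglobin that removes nitric oxide. It had 54.4 and 38.5 CPM at 37°C, against 705 and 316 CPM at 25°C, with a fold change of −3.44 (log2, SE 0.51) and an adjusted p of 0.119 in edgeR. DESeq2 gave it an adjusted p of 1.25e-06 with all libraries and 0.000342 without the first 25°C library. MDH2, the cytosolic malate dehydrogenase, had 43.7 and 45.0 CPM at 37°C, against 182 and 124 CPM at 25°C. IDH2, a subunit of isocitrate dehydrogenase, had 42.6 and 41.3 CPM at 37°C, against 112 and 107 CPM at 25°C. QDR2, a multidrug exporter, had 32.0 and 29.1 CPM at 37°C, against 165 and 91.1 CPM at 25°C. Of 10 histone genes, 1 was above the second 25°C library and 3 above the first, and of 26 cyclin and G1 genes 10 and 12 were. The histone genes include HHO1 and HTZ1, which are not core histone genes. HTA2, a histone H2A gene with a near-identical copy, had 131 and 158 CPM at 37°C, against 406 and 337 CPM at 25°C, and RNR1, the large subunit of ribonucleotide reductase, had 29.8 and 38.5 CPM at 37°C, against 88.2 and 86.4 CPM at 25°C. Of 13 tested genes listed for mating-type a cells, 4 were above the second 25°C library and 9 above the first. Just 1 was over 2-fold higher than both and 0 lower, against 3.96% and 0.791% of all genes. That gene was FUS2, which acts in cell fusion and is not specific to a cells. It had 39.4 and 39.4 CPM at 37°C, against 11.8 and 13 CPM at 25°C. The pheromone receptor gene STE2 had 67.1 and 70.3 CPM at 37°C, against 129 and 211 CPM at 25°C, and the regulator SST2 had 43.7 and 46.9 CPM at 37°C, against 106 and 134 CPM at 25°C.

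For ribosomal protein genes the direction depended on the 25°C library. Of 81 genes of the large subunit, 2 were above the second 25°C library but 57 above the first, and the median was −0.76 against the second and 1.13 against the first. Of 57 genes of the small subunit, 0 were above the second and 36 above the first, with medians of −0.74 and 0.65. Over the fit, the large subunit median was −0.18, and 0.06 with scaling by total counts. Large subunit genes held 7.03% and 7.38% of counts at 37°C, against 6.12% and 10.5% at 25°C. The first 25°C library stood below the second by a median of 1.70 on the log2 scale over the large subunit genes and 1.34 over the small subunit genes, a wider gap than that between 37°C and either 25°C library. The paralogs RPL21A and RPL21B, chosen after their values were seen, show how far apart the 25°C libraries were. RPL21A had 677 and 566 CPM at 37°C, against 2704 and 1513 CPM at 25°C, and RPL21B had 841 and 921 CPM at 37°C, against 118 and 1535 CPM at 25°C. RPL21A was lower at 37°C against both, and RPL21B lay between the 25°C libraries. Genes of ribosomal proteins over 2-fold lower than both numbered 4 of 81 and 5 of 57 for the large and the small subunit, against 0.791% of all genes. They included RPL15A, with 344 and 314 CPM at 37°C, against 911 and 724 CPM at 25°C, RPS8B, with 338 and 336 CPM at 37°C, against 1276 and 814 CPM at 25°C, RPS18B, with 111 and 97.5 CPM at 37°C, against 600 and 231 CPM at 25°C, and RPS20, with 55.4 and 41.3 CPM at 37°C, against 329 and 131 CPM at 25°C.

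Most genes of ribosome assembly and most translation factor genes were below each 25°C library, and further below the first than the second. Of 72 tested genes of 60S assembly, 4 were above the second 25°C library and 13 above the first, and the median was −0.76 over the fit, −0.45 against the second and −1.01 against the first. Of 59 genes of the small-subunit processome and 40S assembly, 9 and 14 were above, with medians of −0.29 and −0.74. Counted over both sets, 1 gene was over 2-fold lower than both libraries, where the share over all genes tested was 0.791%. It was KRR1 of 40S assembly, which had 274 and 234 CPM at 37°C, against 858 and 554 CPM at 25°C. KRR1 passed narrowly, with a log2 difference of −1.01 between the first 37°C and the second 25°C library. NOP7, a 60S assembly factor, had 648 and 577 CPM at 37°C, against 2399 and 1281 CPM at 25°C. PAC motifs stood in the start region of 56.9% of 60S assembly genes and 54.2% of 40S assembly genes. Of 34 translation factor genes, 16 were lower at an unadjusted p below 0.05 in edgeR and 1 higher (6.02% and 7.53% of all genes). Above the second 25°C library were 6 and above the first 12, with medians of −0.63 and −1.01. CDC33, the cap-binding factor eIF4E, had 43.7 and 41.3 CPM at 37°C, against 182 and 92.3 CPM at 25°C. DED1, a helicase of initiation, had 12.8 and 6.56 CPM at 37°C, against 58.8 and 34.3 CPM at 25°C. In these groups the first 25°C library stood above the second, by a median of 0.52 for 60S assembly and 0.34 for translation factors, the reverse of the ribosomal protein genes. Adenine-rich windows of 14 or more were found in 56 of the 72 genes of 60S assembly, 15 of the 34 translation factor genes, and 19 of the 81 large subunit genes, against 43.8% of all coding genes tested.

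**Figure D4:**
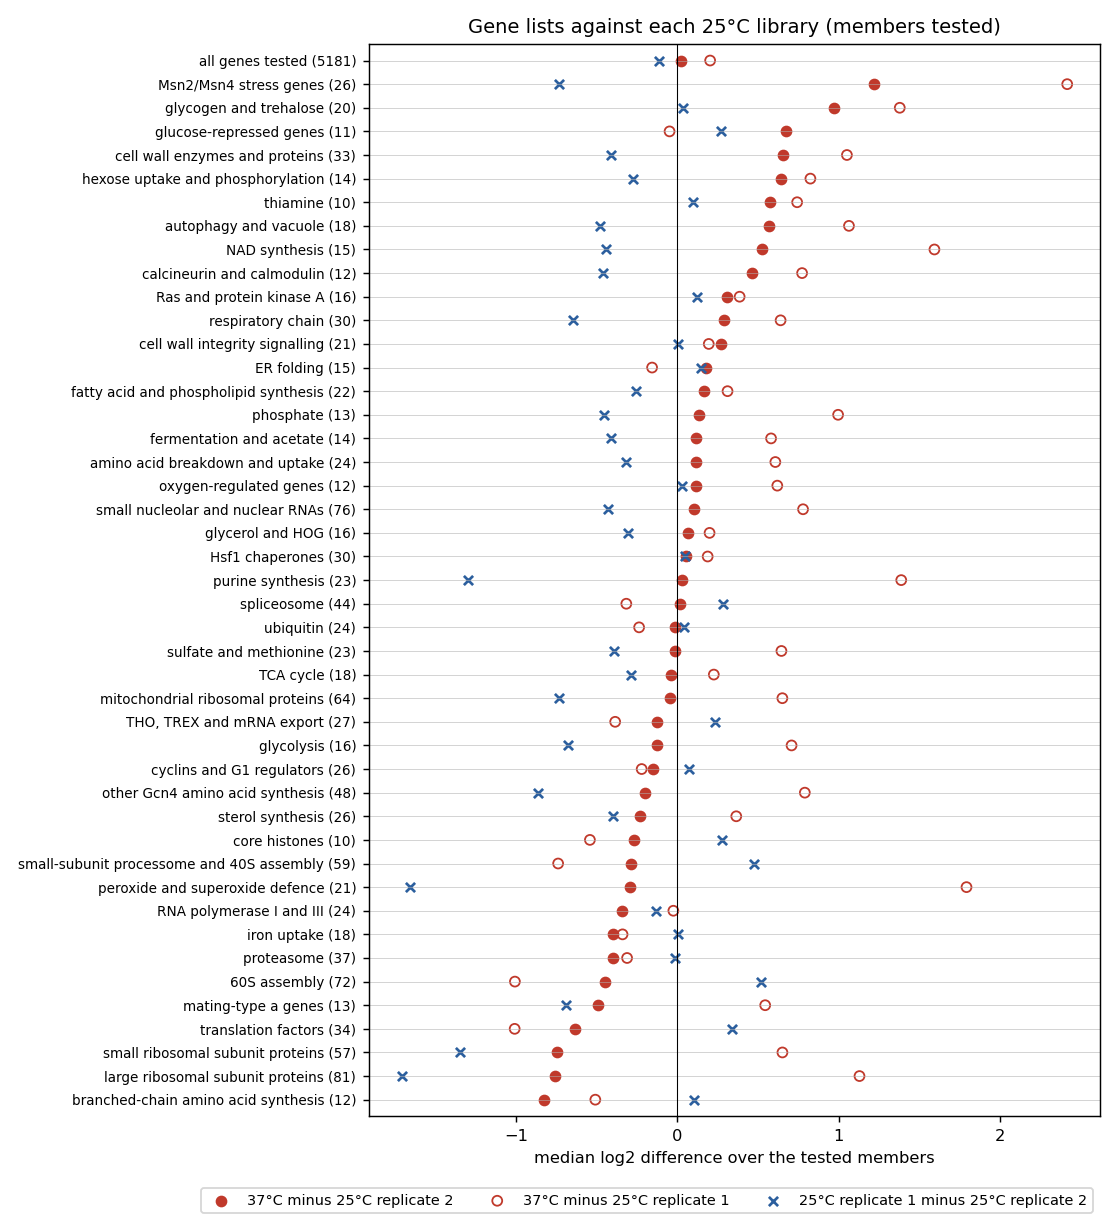
Median log2 difference over the tested members of each gene list (rows, with the number tested), for 37°C minus the second 25°C library (filled circles), 37°C minus the first (open circles), and the first minus the second 25°C library (crosses). Lists with both circles far to the right are the Msn2 and Msn4 list (1.22 and 2.41) and glycogen and trehalose (0.97 and 1.38), and the ribosomal protein lists have circles on both sides of 0. The row of core histones includes HHO1 and HTZ1, and that of mating-type a genes includes FAR1 and FUS2.

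Of 4 mRNA export factors and 2 long mRNAs that the study followed, none was over 2-fold apart from the second 25°C library in both 37°C libraries. YRA1, which carries the SNAP tag, had 63.9 and 71.3 CPM at 37°C, against 76.4 and 65.1 CPM at 25°C, a fold change of −0.04 (log2, SE 0.41). NAB2, a nuclear poly(A)-binding protein, had 85.3 and 98.5 CPM at 37°C, against 129 and 105 CPM at 25°C. NPL3, an SR-like protein, had 318 and 319 CPM at 37°C, against 617 and 457 CPM at 25°C, and its fold change of −0.75 (log2, SE 0.33) had an adjusted p of 0.376 in edgeR. HPR1, a subunit of the THO complex, had 173 and 159 CPM at 37°C, against 218 and 148 CPM at 25°C. For YRA1 and HPR1 the 37°C libraries overlapped the 25°C libraries, while for NAB2 and NPL3 both were lower than either 25°C library. IRA2, a regulator of Ras, had 321 and 291 CPM at 37°C, against 459 and 281 CPM at 25°C, and TAO3, a morphogenesis factor, had 160 and 188 CPM at 37°C, against 106 and 148 CPM at 25°C.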

How the data were processed

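Total RNA of 6 cultures was read by 3′-Tag-seq. The deposited counts per gene were made by the authors with UMI-tools 1.0.1, STAR 2.7.10a and HTSeq 2.0.2 on R64, per the submitters' processing notes; the strand setting and the handling of molecular identifiers for these libraries are not given in the sources used here. A deposited normalized table (signal) holds the same counts divided by size factors (DESeq2 1.38.2), and 100% of its values gave whole reads within 0.001. Summary rows (5) were left out, and 3 of 6461 genes did not match the annotation. Counts were tested with the quasi-likelihood test of edgeR 4.0.16 (R 4.3.3) on all 6 libraries, with TMM factors, the default filter on low counts, and Benjamini-Hochberg adjustment. Calls needed an adjusted p under 0.05 together with a fold change over 2. DESeq2 1.42.0 and voom of limma 3.58.1 were alternatives. Differences between single libraries are of log2 CPM with a prior count of 2. Replicates are 2 per temperature, so p-values measure the spread between few samples.

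Members and the 48 gene lists were chosen with earlier results of these data known. Genes were named by rule: among genes tested whose 4 differences between a 37°C and a 25°C library share a sign and whose log2 fold change is beyond 1, the 15 higher and 15 lower with the smallest p; up to 3 of each list by p; the 10 genes with the largest share of counts; and YRA1, NAB2, NPL3, HPR1, IRA2 and TAO3. The text names part of these, and says where a gene was chosen otherwise. The scripts were tested on simulated counts.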

Additional observations from a re-analysis of the deposited data

How the results depend on the processing

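The first 25°C library limits every result, since 3 of its counts are worth 17.6 CPM. No gene was called by edgeR with RLE factors, with the size factors of the deposited table, with the recovered reads, or by limma-voom. The number called was 53 with DESeq2, 19 with DESeq2 and 1 with edgeR on the 4 libraries alone, 7 with total counts, 4 with no filter, and 22 with DESeq2 without the first 25°C library. Leaving out 1 library gave 0 to 364 calls, 161 to 942 higher genes and 29 to 816 lower genes at an unadjusted p below 0.05. The highest values came without the second 25°C library, which leaves the shallow one, and the lowest of the p counts without the second 37°C library. Those counts were 245 higher with DESeq2, 193 higher with DESeq2 on 4 libraries, 172 and 97 with DESeq2 without the first 25°C library, 638 and 110 with total counts, and 217 and 182 with at least 10 counts in every library. Over 2-fold against the second 25°C library were 419 and 23 genes with total counts, 57 and 23 with at least 10 counts in every library, and 1367 and 549 with the first 25°C library in its place. Against both they were 308 and 16 with total counts and 36 and 12 with at least 10 counts. With the replicate block, 0 genes were called and 260 were higher and 162 lower; deviations of same-numbered libraries had r of 0.28 for 37°C and 25°C, −0.40 for 37°C and 30°C, and −0.53 for 30°C and 25°C, so numbers were not taken as pairs. With the 30°C numbers crossed, 10 were called, 573 higher and 476 lower. The log2 fold change of YRA1 turned to 0.035 with DESeq2 without the first 25°C library, 0.23 with at least 10 counts, 0.024 in the crossed block, and 0.21 with total counts, and ran between −0.21 and 0.037 on leaving out 1 library. That of HPR1 turned to 0.15, 0.20 and 0.14 with that DESeq2 fit, at least 10 counts and total counts, and ran between −0.43 and 0.13 on leaving out 1 library. That of IRA2 turned to 0.10 and 0.064 with that DESeq2 fit and at least 10 counts, and ran between −0.62 and 0.092 on leaving out 1 library. Among list medians, that of the Msn2 and Msn4 list was 2.80 without the second 25°C library, that of wall enzymes and proteins 0.51 without the second 37°C library, and that of wall signalling 0.11 without the second 37°C library and 0.49 with total counts. The Hsf1 median was 0.03 without the second 37°C library and 0.38 with total counts, and that of 60S assembly −0.48 without the first 25°C library. The large and small subunit medians were −0.79 and −0.78 without the first 25°C library, 1.10 and 0.65 without the second, and 0.21 and 0.03 with limma-voom. The crossed block, the recovered reads, the DESeq2 fit without the first 25°C library and the alternatives for the counts against both were added after seeing the data. The cause of these shifts was not tested.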

Other observations

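In the deposited counts, 107 genes had counts in both 37°C libraries and 0 in both 25°C libraries, of which 2 passed the filter on low counts, and 4 genes showed the reverse with 1 or 2 counts. These cases differ in depth, since the reverse needs a count in the first 25°C library, with 184456 counts in genes. It also needs 0 in both deeper 37°C libraries, so the numbers do not measure a balance of directions. Many of the 107 genes had few counts at 37°C. TMA10, a ribosome-associated protein of stressed cells, had 7 and 17 counts at 37°C, against 0 counts in both 25°C libraries, and was at least 3.96-fold higher with a floor of 3 counts over the pooled 25°C libraries.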
